A study of Mus musculus with 5 samples.

Results

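The accessible chromatin of transgenic SOX13lo γδ thymocytes was set against that of SOX13lo γδ thymocytes without the transgene, by ATAC-seq, in mice of strain C57BL/6. Transgenic SOX13lo cells came from animals of genotype TCRbeta KO.Sox13tg+.Sox13 ECFP KI/+, and SOX13lo cells from TCRbeta KO.Sox13 ECFP KI/+ animals. Both groups therefore carried the TCRbeta knockout and 1 copy of the ECFP reporter knocked into Sox13, and differed in the genotype label by the Sox13 transgene alone. In both, γδ T thymocytes were sorted as CD24+ and CFP low to absent, 40000 per library. The labels name neither the promoter that drives the transgene nor the age, sex or number of the animals. Each group holds 1 library, and so do the 3 other groups of the study, which were transgenic SOX13hi and SOX13hi γδ thymocytes and wild-type double-positive (DP) thymocytes. All autosomal peaks of the transgenic SOX13lo and SOX13lo lists were taken, and peaks overlapping by at least 1 bp were merged. This gave 75557 regions, of 153269 regions in the 5 lists together. With no replicate, every difference below is between 2 libraries, and no p-value can be given.

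ATAC-seq uses a transposase that inserts sequencing adapters into DNA not covered by nucleosomes, so its peaks mark active promoters, enhancers and other open sites. γδ T cells leave the thymus with a receptor of γ and δ chains, and part of them are programmed there to make IL-17. SOX13 is a transcription factor of the SOX family whose HMG box binds and bends DNA at short A/T-rich motifs, and it is known as an early marker and regulator of γδ thymocytes. CD24 is high on immature thymocytes, and CFP from the knocked-in reporter follows the activity of the endogenous Sox13 gene. SOX13 protein made from the transgene was not measured in these files.

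The promoters of 3 genes whose start was open in SOX13lo cells and had no transgenic SOX13lo peak are shown first, because the loss of start peaks is described with them further on. Lck is shown with them because a group of strong transgenic peaks lay in its area. The sequences are RefSeq promoters on GRCm38.p6, 250 bases before to 50 bases after the annotated start, 5′ to 3′ on the gene's strand. For Themis, 1 of 2 overlapping entries is shown, and for Lck the entry, of 2, that lies nearer the coding exons. Capitals mark the SOX and TCF motifs AACAAT and ACAAAG, which share the bases ACAA and were searched on both strands.

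Themis: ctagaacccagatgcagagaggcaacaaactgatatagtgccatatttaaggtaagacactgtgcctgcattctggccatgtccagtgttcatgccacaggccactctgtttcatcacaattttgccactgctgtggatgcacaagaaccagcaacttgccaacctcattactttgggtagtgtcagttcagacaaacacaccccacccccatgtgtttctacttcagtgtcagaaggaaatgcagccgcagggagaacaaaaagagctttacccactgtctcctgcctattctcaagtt
Nt5e: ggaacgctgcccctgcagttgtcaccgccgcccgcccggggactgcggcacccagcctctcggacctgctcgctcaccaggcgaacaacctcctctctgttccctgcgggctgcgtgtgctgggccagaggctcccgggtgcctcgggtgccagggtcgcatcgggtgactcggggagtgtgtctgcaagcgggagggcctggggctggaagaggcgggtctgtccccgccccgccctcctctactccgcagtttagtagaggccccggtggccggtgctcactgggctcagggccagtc
Cd44: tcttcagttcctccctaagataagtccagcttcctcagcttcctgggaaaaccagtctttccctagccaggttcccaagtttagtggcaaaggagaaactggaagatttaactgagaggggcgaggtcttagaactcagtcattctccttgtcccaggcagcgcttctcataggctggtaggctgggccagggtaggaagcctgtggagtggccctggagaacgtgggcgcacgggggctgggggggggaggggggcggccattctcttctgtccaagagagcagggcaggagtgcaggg
Lck: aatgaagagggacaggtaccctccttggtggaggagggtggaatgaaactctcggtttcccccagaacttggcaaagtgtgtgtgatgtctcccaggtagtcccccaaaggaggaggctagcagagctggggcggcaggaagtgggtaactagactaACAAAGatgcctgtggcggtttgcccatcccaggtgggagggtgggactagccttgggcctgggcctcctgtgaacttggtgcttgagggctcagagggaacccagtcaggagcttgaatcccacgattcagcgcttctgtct

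The promoters of Themis, Nt5e and Cd44 held neither motif, and that of Lck held 1 ACAAAG, at base 158 counted from the 5′ end shown. Of 32851 mouse promoters of this length, 10.7% held AACAAT, 18.7% held ACAAAG and 27.0% held at least 1 of them. The absence of these letters from a window says nothing about binding of SOX13 there. The Nt5e promoter was rich in G and C (71.0%, with 23 CG dinucleotides) and that of Themis was not (47.3%, with 1 CG dinucleotide), against a median of 52.7% over all promoters.

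The transgenic SOX13lo list was the shortest of the study. It held 32167 autosomal peaks over 2.57 Mb, with a median width of 30 bp, and the SOX13lo list held 65744 over 6.95 Mb, with a median width of 58 bp. The read depth is unknown, so a list's length may come from depth as well as from open chromatin, and these cannot be told apart. Nor can fewer cells with an open site be told from less signal per cell. For this reason results are given with all peaks and with equal-length lists, which keep from each list as many of its highest-scoring peaks as the transgenic list held before the choice of autosomes. That limit left the transgenic list whole and kept 32346 autosomal SOX13lo peaks, with a median width of 127 bp. Inside the SOX13lo list the name field of each line carries the name SOX13hi, whereas that of the transgenic SOX13lo list matches its label. That of the SOX13hi list matches its own label, so both non-transgenic lists are named SOX13hi inside. The labels were followed, and main results are also given with the SOX13hi list in its place. The labels give the transgenic SOX13hi and DP libraries the same index sequence. In both SOX13lo libraries the Tcrg, Tcra/Tcrd and Cd3 loci held regions. The starts of the DP markers Cd8a, Cd4, Rag1 and Dntt had no peak in either, against 4, 4, 6 and 5 peaks in DP. Counted as whole loci in equal-length lists, with 20 kb on either side, these DP markers did hold regions. Cd8a/Cd8b1 had 1 in transgenic SOX13lo and 1 in SOX13lo, and Cd4 had 3 and 4. Rag1/Rag2 had 4 and 4, and Dntt 4 and 6, in that order. Of the B cell and myeloid markers, the starts of Pax5, Spi1 and Csf1r had no peak in either library. The start of Ebf1 had 0 in transgenic SOX13lo and 1 in SOX13lo, and that of Cebpa had 2 in transgenic SOX13lo and 5 in SOX13lo.

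The gene carried by the transgene showed the plainest difference. Across the 3′ part of the Sox13 gene body on chromosome 1 (mm9), transgenic SOX13lo cells had 12 peaks between 135279416 and 135289711, covering 2028 bp, and SOX13lo cells had 2 narrow peaks covering 57 bp. The transgenic peaks were separate blocks with gaps between them. The widest, at 135279416 to 135280059, was 644 bp with a deposited score of 780, above 99.95% of the peaks in its list, and 5 of the 12 scored above 90% of that list. The 2 SOX13lo peaks scored 13 and 8, the second at the lowest score of its list. In the other fraction, transgenic SOX13hi cells had 14 peaks there and SOX13hi cells had 0, and DP cells had 1. The approximate start of Sox13 had no peak in either SOX13lo library. Reads from transgene copies and from the endogenous gene cannot be told apart in a peak list, so these peaks are no measure of how open the endogenous Sox13 gene was.

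A second group of strong transgenic peaks lay in the area of Lck, the kinase that starts signalling from the T cell receptor, which has a distal promoter and a proximal one used in thymocytes. It was chosen after its values were seen. The labels do not name the transgene's promoter, so reads from any Lck sequence in the transgene and from the endogenous gene cannot be told apart. On chromosome 4, transgenic SOX13lo cells had a 225 bp peak at 129235658 to 129235882 with a score of 1365, above 99.97% of its list. Peaks at 129237057 to 129237130 and at 129238579 to 129238680 scored above 99.88% and 99.24%. SOX13lo cells had 3 peaks of 28 to 29 bp there, the highest above 74.48% of its list, and none beyond 129236023. Transgenic SOX13hi cells again had a wide peak at the first position (285 bp, score 490, above 99.92%), and SOX13hi cells had 2 narrow peaks, the higher above 73.9%. DP cells had 1 peak, of 154 bp, above 95.8%. Near the distal start the order differed: transgenic SOX13lo cells had 2 peaks covering 121 bp, and SOX13lo cells had 4 covering 815 bp, with a peak of 429 bp at 129252533 to 129252961. A further group, on chromosome 2 between 27351315 and 27358176, held 19 transgenic SOX13lo peaks over 1912 bp and 4 SOX13lo peaks over 225 bp. It held 23 peaks in transgenic SOX13hi cells, 2 in SOX13hi cells and 12 in DP cells, and no gene name is given to it here. This group too was bounded after its values were seen.

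**Figure D1:**
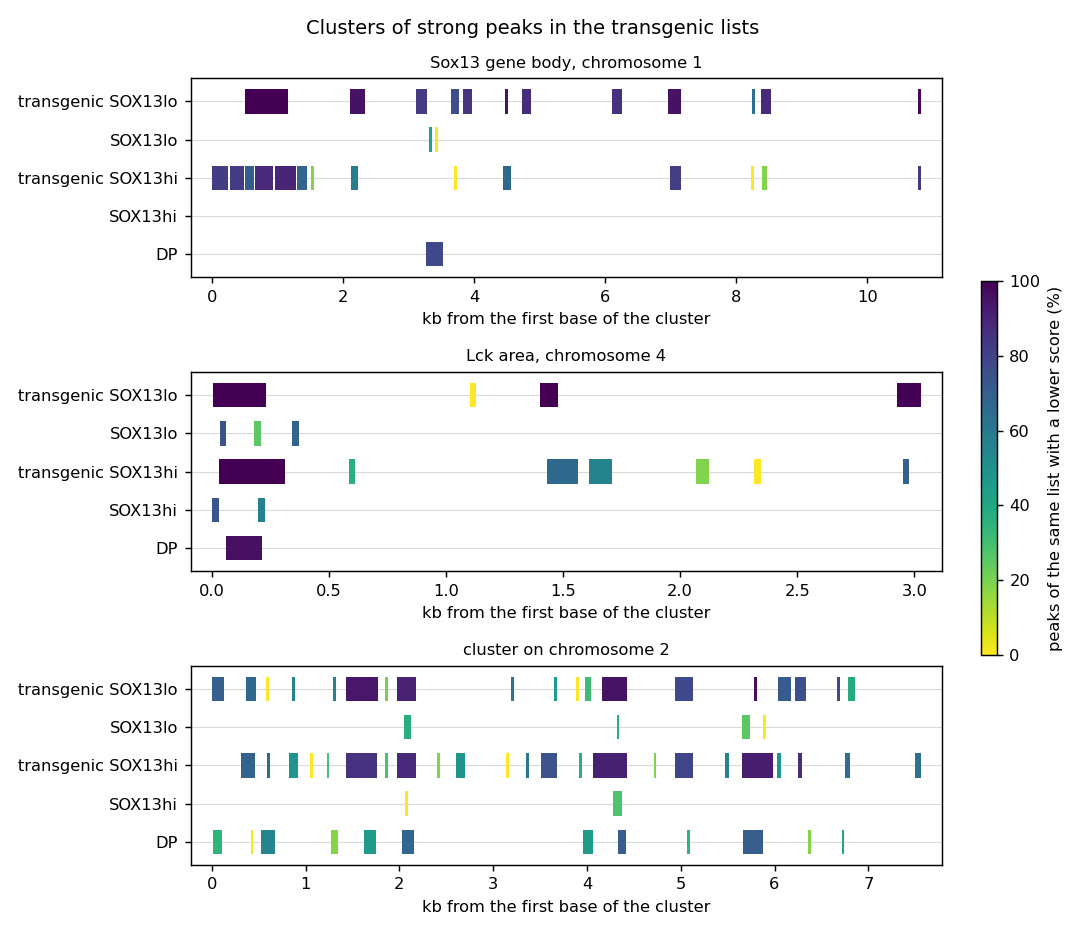
Peaks of the 5 libraries in the Sox13 gene body, the Lck area and the chromosome 2 cluster, by distance in kb from the first base of each cluster; colour gives the percentage of the same list's peaks with a lower score, and peaks narrower than 1/250 of the panel are drawn at that width. In the Sox13 panel transgenic SOX13lo cells have 12 peaks and SOX13lo cells have 2, and transgenic SOX13hi cells have 14 and SOX13hi cells have 0.

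Over the genome, most open sites of transgenic SOX13lo cells were also open in SOX13lo cells, but many sites of SOX13lo cells were not called in the transgenic library. With all peaks, 68.2% of transgenic SOX13lo peaks met a SOX13lo peak (exact Clopper-Pearson 95% interval 67.7 to 68.7, counting error only), and 28.0% of SOX13lo peaks met a transgenic SOX13lo peak (27.6 to 28.3). In equal-length lists the shares were 60.9% (60.4 to 61.4) and 48.9% (48.3 to 49.4). The SOX13hi pair had higher shares in the same lists, with 66.4% of transgenic SOX13hi peaks and 66.9% of SOX13hi peaks met. With all peaks its shares were 52.0% and 61.3% in that order. The equal-length cut left 50.3% of transgenic SOX13lo peaks at 30 bp or narrower. In the transgenic SOX13hi and SOX13hi lists it left 21.8% and 22.7%. The pairs therefore differ in the peaks compared, and these shares do not show which pair was more alike. With the SOX13hi list in place of SOX13lo, 56.8% of transgenic SOX13lo peaks and 48.9% of SOX13hi peaks were met, and 63.0% and 34.2% with all peaks. Allowing a gap of up to 1 kb raised the shares with all peaks to 93.2% of transgenic SOX13lo peaks and 63.2% of SOX13lo peaks.

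Sharing followed the score of a peak within its list. In the highest-scoring 10% of each list, 93.3% of transgenic SOX13lo peaks and 89.2% of SOX13lo peaks were met, with all peaks. In the lowest-scoring 10% these shares were 45.2% and 4.67%. In equal-length lists the highest-scoring 10% had 92.6% and 94.0%, and the lowest-scoring 10% had 36.8% and 16.7%, in the same order of libraries. The strongest sites were therefore mostly common to both. Where the libraries shared a region, transgenic SOX13lo peaks covered fewer bases in 69.4% of 17979 regions, with a median of 79 bp, against 150 bp in SOX13lo.

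**Figure D2:**
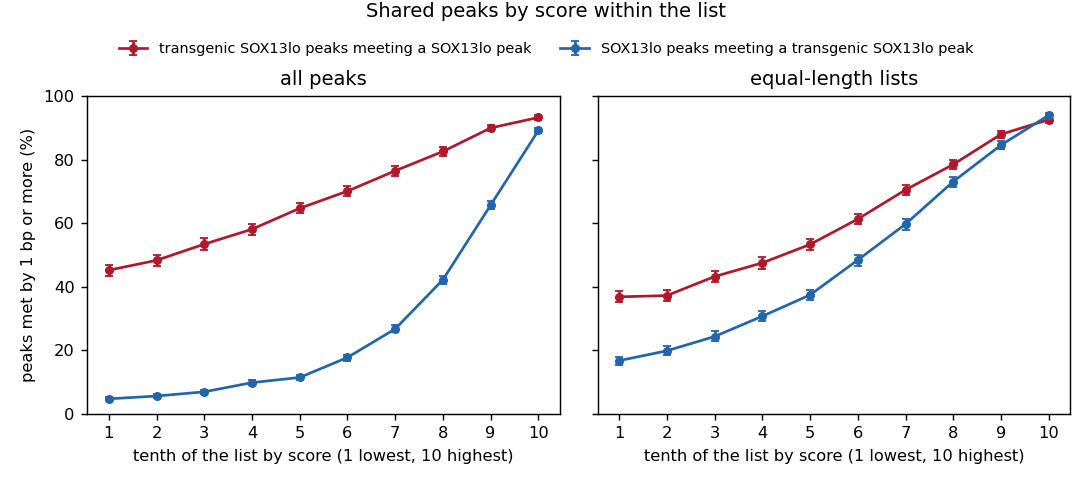
Percentage of peaks met by a peak of the other library, for each 10% of a list by deposited score, with all peaks (left) and with equal-length lists (right); bars are exact 95% intervals. With all peaks the highest-scoring 10% were met at 93.3% in transgenic SOX13lo and 89.2% in SOX13lo, and the lowest-scoring 10% at 45.2% and 4.67% in the same order.

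A gained region was present in transgenic SOX13lo cells and absent from SOX13lo cells, and a lost region the reverse. With all peaks, 10222 regions were gained, 13.5% of the union, 47356 were lost (62.7%) and 17979 were shared. In equal-length lists 12579 were gained (28.1%) and 16537 were lost (36.9%). The strictest sets are the gained regions with all peaks, which the whole SOX13lo list lacks, and the lost regions of equal-length lists, which scored in the upper part of the SOX13lo list and which the whole transgenic list lacks. With all peaks both were narrow, with medians of 28 bp for gained and 29 bp for lost regions. In equal-length lists, where the limit on score takes narrow peaks from the SOX13lo list, they were 28 bp and 103 bp. Many gained peaks lay beside an open site of the other library: of the 10222 transgenic SOX13lo peaks not met, 62.8% had a SOX13lo peak within 200 bp and 78.7% within 1 kb. Of the 16537 SOX13lo peaks not met in equal-length lists, 26.9% had a transgenic SOX13lo peak within 200 bp and 49.4% within 1 kb, which left 8370 with none within 1 kb, 25.9% of the list. The number of isolated transgenic SOX13lo peaks was 2173 with all peaks.

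The other libraries, which took no part in naming regions gained or lost, held many of both. With all peaks, transgenic SOX13hi cells held 42.9% of the gained regions (42.0 to 43.9), SOX13hi cells 36.6% (35.6 to 37.5) and DP cells 47.1%. Of the lost regions with all peaks they held 35.6%, 32.3% and 52.0%, in the same order of libraries. In equal-length lists, transgenic SOX13hi cells held 34.3% of the gained regions and SOX13hi cells 30.4%. Of the lost regions in equal-length lists, transgenic SOX13hi cells held 40.3% (39.6 to 41.1), SOX13hi cells 42.3% (41.6 to 43.1) and DP cells 46.0%. Shared regions were held far more often, at 86.4%, 84.7% and 81.9% in equal-length lists.

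Regions held by just 1 library of the SOX13hi pair were then read against shared regions, since the transgenic SOX13hi list is the longer of that pair. With all peaks, 59.7% of such gained regions were in transgenic SOX13hi (58.0 to 61.4), 56.3% of the lost (55.4 to 57.1) and 62.8% of the shared (60.9 to 64.7). In equal-length lists these shares were 57.0% for the gained (55.4 to 58.7), 46.5% for the lost (45.1 to 48.0) and 55.8% for the shared (53.8 to 57.8). The intervals of gained and shared regions overlapped in both kinds of list, and the share for lost regions lay below that for shared regions in both. In the upper 10% of gained regions by score, with all peaks, 72.6% were in transgenic SOX13hi and 65.6% in SOX13hi, and in the upper 10% of lost regions 77.9% and 78.2%. In equal-length lists these were 67.3% and 59.7% for the gained and 74.3% and 78.1% for the lost.

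**Figure D3:**
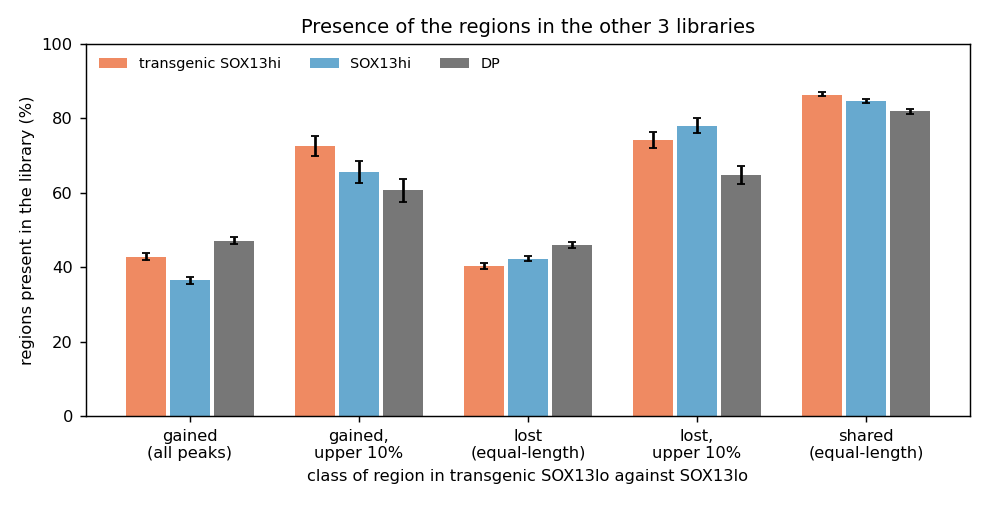
Percentage of gained, lost and shared regions of transgenic SOX13lo against SOX13lo that transgenic SOX13hi, SOX13hi and DP cells also held; gained regions use all peaks, the others equal-length lists, and bars are exact 95% intervals. Transgenic SOX13hi held 42.9% of the gained regions and SOX13hi 36.6%, and for the lost regions the values were 40.3% and 42.3%.

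T cell genes were then looked up by position. The files name no genes, and no mm9 annotation was at hand, so 66 loci were placed by approximate mm9 positions from general knowledge, each with 20 kb on either side. Of 63 approximate gene starts, 55 had a peak of some library within 1 kb, whereas 5.56% of the sequence lies that near a peak. In equal-length lists, the 61 loci of T cell genes held 379 regions in transgenic SOX13lo cells and 404 in SOX13lo cells, and of their 607 regions 33.4% were gained and 37.6% lost. Over all regions 28.1% were gained and 36.9% lost. Transgenic SOX13lo cells had more regions at 22 of these loci, fewer at 26 and as many at 13, with a median difference of 0. Of all 66 loci, 10 had at least 3 more regions and 12 at least 3 fewer. Of all 100 kb windows, which are shorter than many loci, 5.72% had at least 3 more and 11.7% at least 3 fewer.

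By role, the lists differed in their counts. Transgenic SOX13lo cells had more regions at 4 of 5 loci of E proteins and their Id inhibitors, fewer at 0, with 18 regions against 10 in SOX13lo. Tcf3 carried most of this, with 7 against 2, and Id2, Id3 and Tcf12 each had 1 more. With all peaks transgenic SOX13lo cells had fewer at all 5. Genes tied to IL-17-producing γδ T cells (Sox13, Sox4, Sox5, Maf, Blk, Etv5, Rora and Zbtb16) split into 4 with more and 4 with fewer. Sox13 was among those with more (13 against 1), and its peaks do not measure the endogenous gene, as said above. Surface receptors and trafficking genes had fewer at 7 of 11 loci and more at 2, with 60 regions against 95 and 49.6% of their 119 regions lost. Tnfrsf1b and Tnfrsf8 carried much of this: without that locus the list had 44 regions against 57, and 42.1% of 76 were lost. Type 1 effector genes had fewer at 3 of 4. The 2 HMG-box genes of the TCF family split, with 1 more at Tcf7 and fewer at Lef1. Coreceptor loci had more at 2 of 4 and fewer at 1, recombination loci more at 0 of 2 and fewer at 1, and IL-17 effector loci more at 1 of 4 and fewer at 1. Receptor signalling genes had more at 1 of 5 and fewer at 2, commitment genes more at 3 of 5 and fewer at 2, and other T cell regulators more at 2 of 8 and fewer at 3. The 2 B cell loci held 3 regions in each library, and the 3 myeloid loci held 3 in transgenic SOX13lo and 4 in SOX13lo.

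The largest deficit was at Tnfrsf1b and Tnfrsf8 on chromosome 4, which encode the TNF family receptors TNFR2 and CD30. Transgenic SOX13lo cells had 16 regions there (exact Poisson 95% interval 9.15 to 26.0, counting error only) and SOX13lo cells 38 (26.9 to 52.2). Sox5 encodes a SOX factor of the same subgroup as SOX13. Transgenic SOX13lo cells had 2 regions at Sox5 (0.242 to 7.22) and SOX13lo cells 14 (7.65 to 23.5), and the intervals at these 2 loci did not overlap. At Tcrg, the γ chain locus, the numbers were 13 regions in transgenic SOX13lo and 23 in SOX13lo. At Runx1, a Runt factor needed for T cell development, they were 4 in transgenic SOX13lo and 11 in SOX13lo. The strongest SOX13lo peak at Runx1, at 92826160 to 92826546 on chromosome 16, was met by a transgenic peak, whereas 9 other SOX13lo regions were not.

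Cd44, the hyaluronan receptor, had 3 regions in transgenic SOX13lo cells and 9 in SOX13lo cells. Nt5e encodes CD73, an ecto-enzyme that makes adenosine and marks committed γδ thymocytes, and it had 2 in transgenic SOX13lo and 7 in SOX13lo. Both transgenic Nt5e regions lay about 53 kb downstream of its start, at 88275044 to 88275260 on chromosome 9, where SOX13lo also had its strongest peak of the locus (161 bp, above 97.6% of its list). Maf, a regulator of IL-17-producing γδ cells, had 2 in transgenic SOX13lo and 7 in SOX13lo. Lef1, an HMG-box effector of Wnt signalling, had 8 in transgenic SOX13lo and 13 in SOX13lo, of which 3 were common. The intervals of the 2 libraries overlapped at Tcrg, Runx1, Cd44, Nt5e, Maf and Lef1. Gata3, S1pr1, Egr3 and Cd69 had 3 to 4 fewer regions. Without peaks of 30 bp or narrower the difference was 0 at Cd44, -1 at Tcrg and Maf, and -2 at Runx1 and Nt5e. It was then -4 at Sox5, -11 at Tnfrsf1b and Tnfrsf8, and -5 at Lef1. That setting also cut each list to the length then left in the shortest, so wider SOX13lo peaks were dropped too. With all peaks, Ifng, the type 1 cytokine gene, had 0 regions in transgenic SOX13lo and 8 in SOX13lo (3.45 to 15.8), and Ebf1, a B cell factor, had 0 in transgenic SOX13lo and 5 in SOX13lo. At Ifng transgenic SOX13hi and SOX13hi also had 0 regions.

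The largest excess was at Ets1, a factor of the ETS family required for T cell survival and receptor gene expression. Transgenic SOX13lo cells had 25 regions there (16.2 to 36.9) and SOX13lo cells 9 (4.12 to 17.1). The transgenic peaks at Ets1 were narrow, with a median of 28 bp, and 17 of them met no peak of the whole SOX13lo list. Transgenic SOX13hi cells held 5 of these 17 and SOX13hi cells 4. The 2 strongest SOX13lo peaks of the locus, at 32503525 to 32503636 and 32548693 to 32548832 on chromosome 9, were both met. Sox13 itself had 13 regions in transgenic SOX13lo (6.92 to 22.2) and 1 in SOX13lo (0.0253 to 5.57), mostly the block of peaks described above. Of its 13 gained regions in equal-length lists, transgenic SOX13hi held 5 and SOX13hi 0, and of its 12 gained regions with all peaks 8 and 0.

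Tcra/Tcrd, the α and δ chain locus, had 19 regions in transgenic SOX13lo (11.4 to 29.7) and 9 in SOX13lo (4.12 to 17.1). Tcf3, which encodes the E protein E2A, had 7 in transgenic SOX13lo and 2 in SOX13lo. Notch1, whose receptor drives T cell commitment, had 7 in transgenic SOX13lo and 3 in SOX13lo, and Sox4, a SOX factor needed for IL-17-producing γδ cells, had 14 and 10 in that order. Blk, Zbtb16, Myb and the Cd3 cluster each had 3 more. At 9 of these 10 loci the intervals of the libraries overlapped, the exception being Sox13. Without peaks of 30 bp or narrower the excess was 0 at Tcra/Tcrd, 3 at Ets1, 1 at Tcf3, 2 at Notch1 and 9 at Sox13, and it was 5 at Sox4. In the upper 50% of each list by score it was 3 at Ets1 and at Tcra/Tcrd. Both of these settings also cut each list to the length then left in the shortest. The excesses also depended on list length: with all peaks, unscaled, just Sox13 and Notch1 of the 66 loci had more regions in transgenic SOX13lo and 60 had fewer. At Ets1 the numbers were then 25 in transgenic SOX13lo and 29 in SOX13lo, and at Tcra/Tcrd 19 and 36 in that order. Scaled to equal totals, 7 of the 10 loci with more and 8 of the 12 with fewer were still at least 3 regions apart.

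With the SOX13hi list in place of SOX13lo, the differences at Blk, Lef1 and S1pr1 changed sign, to -1, 2 and 1 regions. The deficit shrank to -7 at Tnfrsf1b and Tnfrsf8, -3 at Sox5 and at Nt5e, -2 at Maf and -1 at Runx1, and there was no difference at Gata3. The difference was 16 at Ets1, 12 at Sox13, 5 at Tcra/Tcrd and -14 at Tcrg.

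**Figure D4:**
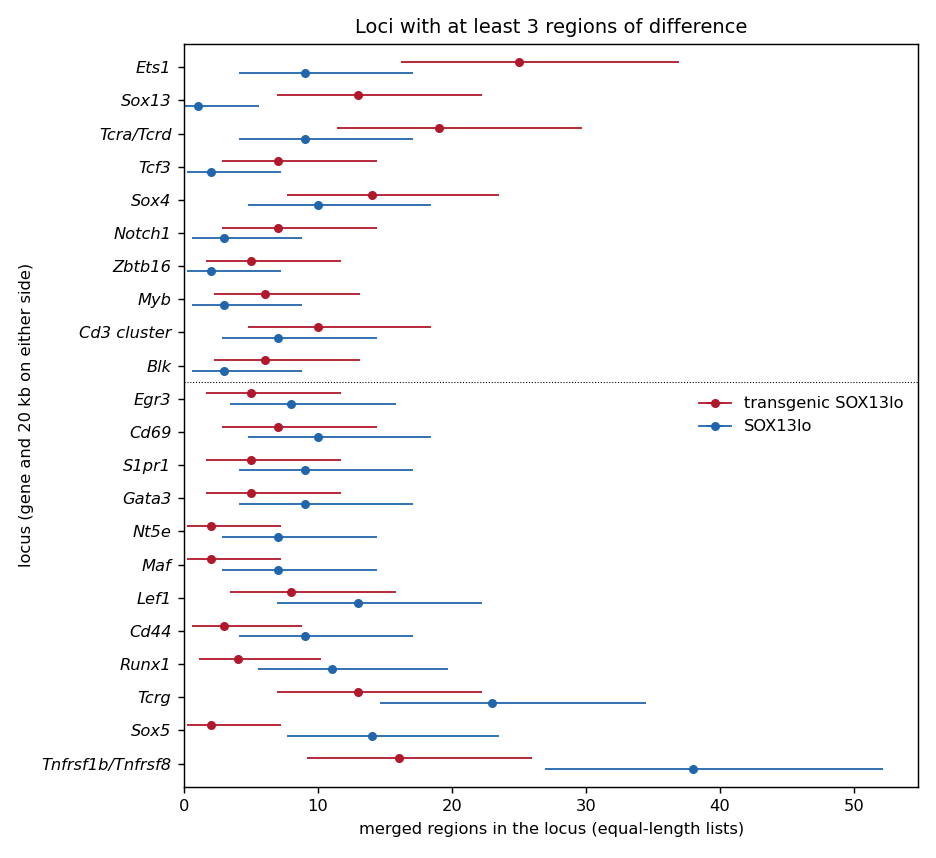
Merged regions in transgenic SOX13lo (red, upper of each pair) and SOX13lo (blue) at the loci that differed by at least 3 regions in equal-length lists; bars are exact Poisson 95% intervals and the dotted line separates loci with more from loci with fewer. Ets1 had 25 against 9 and Sox5 had 2 against 14, and at most loci the bars overlap.

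Open gene starts were compared with all peaks. Of 63 approximate starts, 33 had a transgenic SOX13lo peak within 1 kb and 45 had a SOX13lo peak. In both were 32, in SOX13lo alone 13 and in transgenic SOX13lo alone 1, Hes1, a target of Notch, with peaks of low to middle score. At the 32 common starts the highest-scoring transgenic peak was the narrower at 22 (68.8%), with a median of 156 bp against 199 bp. A strong start was one whose SOX13lo peak scored above at least 80% of its list. Of 29 such starts, 6 (20.7%) had no transgenic SOX13lo peak within 1 kb, where 10.8% of all 13084 SOX13lo peaks of that rank had none. They were Themis, Nt5e, Cd44, Egr3, Il2rb and Sox5. At a rank of at least 70% they were 6 of 36 starts (16.7%), near the 17.1% of all such peaks. At a rank of at least 90%, just Themis, 1 of 14 starts, had none, where 4.05% of such peaks had none. The shares at starts and over all peaks use unlike distances, so they are not like for like. At starts, 1 kb runs from the approximate start to the centre of a peak. Over all peaks, it is the gap between a SOX13lo peak and the nearest transgenic SOX13lo peak.

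Themis, which encodes a signalling protein needed for thymic selection, had no transgenic SOX13lo peak at its start and 3 in SOX13lo. The strongest of these, at 28388128 to 28388241 on chromosome 10, was 114 bp and scored above 94.5% of its list. The other libraries were open at the same place, with top peaks above 92.3% of the list in transgenic SOX13hi, 93.3% in SOX13hi and 94.8% in DP. Nt5e had 0 peaks at its start in transgenic SOX13lo and 3 in SOX13lo, with a peak of 369 bp at 88222281 to 88222649 on chromosome 9, above 87.8% of the list. Transgenic SOX13hi had 1 peak at that start, SOX13hi 3 and DP 1. A further SOX13lo peak of 545 bp at 88223975 to 88224519 was also without a transgenic SOX13lo peak.

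Cd44 had no start peak in transgenic SOX13lo and a SOX13lo peak of 293 bp at 102741585 to 102741877 on chromosome 2, above 83.6% of its list. The SOX13hi pair had none there and DP had 2. Egr3, a factor induced by receptor signals, had 0 start peaks in transgenic SOX13lo and 3 in SOX13lo, the strongest 29 bp wide at 70476643 to 70476671 on chromosome 14. Il2rb, the shared β chain of the IL-2 and IL-15 receptors, had 0 in transgenic SOX13lo and 1 in SOX13lo, of 28 bp at 78325617 to 78325644 on chromosome 15. Sox5 had 0 in transgenic SOX13lo and 4 in SOX13lo, the strongest 28 bp wide at 144730173 to 144730200 on chromosome 6. Over the 6 starts, transgenic SOX13hi had a peak at 4, SOX13hi at 4 and DP at all 6.

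**Figure D5:**
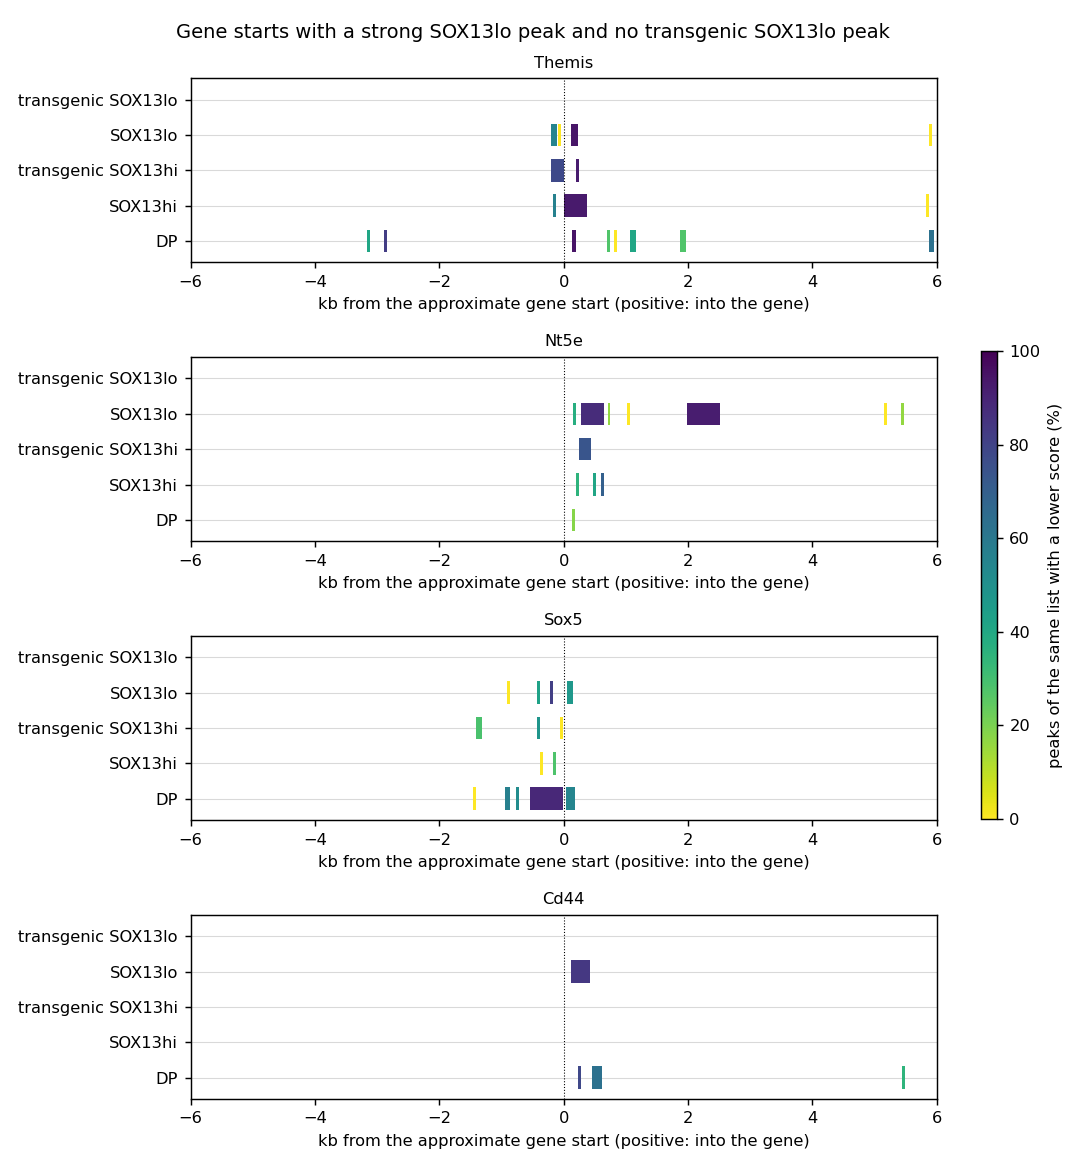
Peaks of the 5 libraries within 6 kb of the approximate starts of Themis, Nt5e, Sox5 and Cd44, by distance in kb along the gene; colour gives the percentage of the same list's peaks with a lower score, and peaks narrower than 48 bp are drawn at 48 bp. The transgenic SOX13lo rows are empty, the SOX13lo rows hold a peak above 94.5% of its list at Themis and above 87.8% at Nt5e, and transgenic SOX13hi is empty at Cd44 alone.

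The 10 highest-scoring transgenic SOX13lo peaks with no SOX13lo peak within 1 kb scored 54 to 403, and 5 of them were the Lck and Sox13 peaks above. Transgenic SOX13hi met all 10, SOX13hi met 2 and DP met 1. The 2 met by SOX13hi and the 1 met by DP lay outside the Lck and Sox13 areas. For the 5 Lck and Sox13 peaks, reads from the transgene cannot be told apart, as said above. Within 1 kb, transgenic SOX13hi had a peak at all 10, SOX13hi at 4 and DP at 4. Outside those areas, the strongest was 436 bp at 14894435 to 14894870 on chromosome 4, above 98.27% of its list. The next were 58 bp at 33644589 to 33644646 on chromosome 6, 75651 bp from the nearest SOX13lo peak, and 87 bp at 36773055 to 36773141 on chromosome 12. The remaining peaks were on chromosome 14 at 103975174 to 103975541 and on chromosome 11 at 19941561 to 19941708.

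The 10 highest-scoring SOX13lo peaks with no transgenic SOX13lo peak within 1 kb scored 193 to 360. Transgenic SOX13hi met 7 of them, SOX13hi 8 and DP 7, and within 1 kb they had a peak at 10, 10 and 8. The first was 815 bp at 148513498 to 148514312 on chromosome 3, 87720 bp from the nearest transgenic SOX13lo peak, where transgenic SOX13hi, SOX13hi and DP had peaks above 98.3%, 99.1% and 96.5% of their lists. The second was 183 bp at 66599255 to 66599437 on chromosome 1, above 98.4% in transgenic SOX13hi and 99.3% in SOX13hi and absent from DP. Another wide one, 829 bp at 115910348 to 115911176 on chromosome 10, was also held by all 3 other libraries. A peak of 229 bp was at 105364575 to 105364803 on chromosome 13. The other 6 were 28 to 64 bp wide.

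In 100 kb windows with equal-length lists, 132 of 9971 windows (1.32%) held at least 5 more regions in transgenic SOX13lo than in SOX13lo cells, and 300 (3.01%) at least 5 fewer. The transgenic list merged into 28219 regions and that of SOX13lo into 32177. After scaling to equal numbers of regions, chosen after the data were seen, 139 windows had at least 5 more and 106 at least 5 fewer. With all peaks, scaled, the numbers were 145 (1.28%) and 80 (0.708%). Windows dense in all 5 lists were left out of those named. On chromosome 1 at 174400001 to 174500000 transgenic SOX13lo had 16 regions and SOX13lo 28, with overlapping intervals (9.15 to 26.0 and 18.6 to 40.5). On chromosome 10 at 122100001 to 122200000 it had 3 regions and SOX13lo 14, on chromosome 13 at 113200001 to 113300000 it had 6 and SOX13lo 17, and on chromosome 2 at 170000001 to 170100000 it had 2 and SOX13lo 13. The largest deficit, at 144800001 to 144900000 on chromosome 4, was 12 regions against 30 in SOX13lo and lay in the Tnfrsf1b and Tnfrsf8 area.

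The largest excess was at 19900001 to 20000000 on chromosome 8, with 39 regions in transgenic SOX13lo and 2 in SOX13lo, and a window nearby at 19700001 to 19800000 had 16 and 4 in that order. Transgenic SOX13hi met 2 of the 37 gained regions in the first. With all peaks it met 9 of 34, and it then had 20 peaks in that window, against 3 in SOX13hi and 3 in DP. The next was at 27300001 to 27400000 on chromosome 2, around the cluster already described, with 22 in transgenic SOX13lo and 4 in SOX13lo, and there transgenic SOX13hi met 13 of 20 gained regions and SOX13hi 0. On chromosome 1 at 90100001 to 90200000 the numbers were 28 in transgenic SOX13lo and 12 in SOX13lo, and on chromosome 18 at 3000001 to 3100000 they were 19 and 7 in that order. No window of these was tied to a gene here.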

How the data were processed

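The deposited files are 1 peak list per library, with chromosome, start, end, name, score and strand and no header. The authors' score, in the deposited lists, is a whole number whose meaning no label or file states, so it served to rank peaks inside 1 list and scores of different lists were not set side by side. The genome build is mm9 (per the submitters' processing notes). Which aligner, caller and filters were used, and the depth, is not given in the sources used here. Autosomal peaks were used, and 2 peaks met where they overlapped by at least 1 bp. Equal-length lists break ties in score by width. Regions are merged peaks, placed in windows and loci by their centre. Loci rest on approximate mm9 positions to 1 kb, and 2 loci of the lists are not reported here. Named were the loci with the 8 largest differences of at least 3 regions in each direction, ties included, those with 0 regions in 1 library and at least 3 in the other, the 10 strongest isolated peaks and the 5 largest windows in each direction. The Sox13, Lck, distal Lck and chromosome 2 clusters were bounded by hand after their values were seen. Members and lists were chosen with earlier results of these data known. With 1 library per group there is no test. Intervals are exact 95% intervals (Clopper-Pearson for shares, Poisson for numbers), cover counting error only and treat regions as independent. The functions were tested on simulated lists. Alternatives were other overlap rules, list cuts, narrow peaks left out and peaks joined. Tools were matplotlib 3.10.9, scipy 1.17.1, pandas 2.3.3, numpy 2.4.6 and Python 3.11.15.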

Additional observations from a re-analysis of the deposited data

Results flagged for a closer look

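At 5 of the 66 loci the transgenic library lay on opposite sides of its non-transgenic counterpart in the 2 fractions, by at least 3 regions in equal-length lists. These differences were not tested, since each group holds 1 library. The share of all 100 kb windows with such opposite differences was not counted, so 5 loci cannot be called many or few. At Tnfrsf1b and Tnfrsf8 the difference was -22 regions in SOX13lo cells (16 transgenic and 38 not) and 4 in SOX13hi cells (27 transgenic and 23 not). At Sox5 it was -12 in SOX13lo cells (2 transgenic and 14 not) and 5 in SOX13hi cells (10 transgenic and 5 not). At Runx1 it was -7 in SOX13lo cells and 3 in SOX13hi cells, and at Lef1 -5 in SOX13lo cells and 3 in SOX13hi cells. At Sox4 it was 4 in SOX13lo cells (14 transgenic and 10 not) and -6 in SOX13hi cells (7 transgenic and 13 not). These signs depend on the label of the SOX13lo list, whose name field reads SOX13hi. With the 2 non-transgenic lists exchanged, tried after seeing the data, transgenic SOX13lo minus SOX13hi and transgenic SOX13hi minus SOX13lo had the same sign at 3 of the 5 loci. They were -7 and -12 at Tnfrsf1b and Tnfrsf8, -3 and -4 at Sox5, and -1 and -3 at Runx1. At Lef1 they were 2 and -6, and at Sox4 1 and -3.

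Chromosome Y, outside the autosomes compared, gave 7.06 of every 1000 peaks in transgenic SOX13lo cells and 1.45 in SOX13lo cells. In equal-length lists the rates were 7.06 and 0.875 in that order. Over all peaks, transgenic SOX13hi cells had 4.43, SOX13hi cells 1.47 and DP cells 2.89. The sex of the animals is not given in the labels, and its part in these differences was not tested.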

How the results depend on the processing

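No paired analysis was possible because each group holds 1 library. Shares are given first for transgenic SOX13lo peaks and then for SOX13lo peaks. With all peaks they were 78.3% and 34.0% in the upper 50% of each list by score, 73.9% and 34.5% with peaks within 150 bp joined, 14.1% and 6.88% with a reciprocal overlap of 50%, 81.4% and 39.1% with centres within 200 bp, 93.2% and 63.2% with a gap of up to 1 kb, and 63.0% and 34.2% with the SOX13hi list in place of SOX13lo. Leaving out peaks of 30 bp or narrower gave 26.3% of SOX13lo peaks. In equal-length lists, the same settings gave 67.2% and 57.7%, 65.7% and 58.6%, 11.7% and 11.7%, 69.9% and 57.2%, and 86.3% and 74.1%. The SOX13hi list gave 56.8% of transgenic SOX13lo peaks, leaving out narrow peaks 58.6% and 49.7%, and leaving out tied peaks 60.4% and 50.1%. In equal-length lists, the upper 50%, joined and narrow-peak settings also cut each list to the length then left in the shortest. Their counts of regions, windows and loci below therefore come from shorter lists too.

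The 10222 gained regions became 3476 in the upper 50%, 6354 with peaks joined, 5017 without narrow peaks, 2173 with a gap of up to 1 kb, and 27644 peaks with a reciprocal overlap and 5969 with centres. The 16537 lost regions became 6826, 10127, 8087 and 8370 under the first 4 of these, 28574 peaks with a reciprocal overlap, and 47356 with all peaks. The share of gained regions in transgenic SOX13hi, among those in 1 of the SOX13hi pair, was 63.9% in the upper 50%, 65.2% with peaks joined, 61.6% with sex chromosomes, 52.3% with a reciprocal overlap, 67.7% with centres, 84.2% with a gap of up to 1 kb and 57.0% in equal-length lists. Shared regions gave 62.8% with all peaks and 55.8% in equal-length lists. They were not counted under the other settings, so the shares there have no value for shared regions to be read against. For lost regions it was 41.6% in the upper 50%, 44.8% with peaks joined, 44.1% with centres and 43.4% without tied peaks, and it turned to 50.2% with a reciprocal overlap and 56.3% with all peaks. The cause was not tested.

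Windows with at least 5 more and at least 5 fewer regions numbered 25 and 34 in the upper 50% of equal-length lists, 54 and 78 with peaks joined, and 38 and 44 without narrow peaks, and 106 had fewer after scaling to equal numbers of regions. With all peaks they were 24 and 2, 49 and 15, and 36 and 6. Loci with at least 3 more and at least 3 fewer numbered 7 and 5 in the upper 50%, and 4 and 3 without narrow peaks. Under the 6 settings other than the SOX13hi list, none of the 10 loci with more and none of the 12 with fewer changed sign. A difference that fell to 0, as at Cd44 without narrow peaks, did not count as a change of sign. In the upper 50%, 5 of the 10 and 5 of the 12 were still at least 3 regions apart. Without narrow peaks 4 of the 10 and 3 of the 12 were. With the SOX13hi list Blk (-1), Lef1 (2) and S1pr1 (1) changed sign. Strong starts without a transgenic peak numbered 1 of 14 at a rank of at least 90% (4.05% over all such peaks), 6 of 30 within 2 kb (10.2%) and 6 of 36 at a rank of at least 70% (17.1%). The percentages over all such peaks rest on gaps between peaks, unlike the numbers at starts, which rest on distance to the start. Scaling to equal numbers of regions, the SOX13hi list at loci, the exchange of the non-transgenic lists, the list without its largest locus and the start settings were chosen after seeing the data. That list was not tried for the shares among the SOX13hi pair, of which it is a member. Depth is unknown, so a site missing from a list was not called there, which does not show that it was closed.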
